A study of Mus musculus with 8 samples.

Results

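Long noncoding RNAs that stay in the nucleus were followed one library at a time through control and Mettl3-knockout mouse embryonic fibroblasts. The set holds 8 genes: Malat1, Neat1, Meg3, Rian, Mirg, Kcnq1ot1 and Airn, known as nuclear or chromatin-retained RNAs, and Gm26917. Of these, 7 had a row among the 39017 gene identifiers of the count table and 6 were tested, while Kcnq1ot1 was not analysed here. Gm26917 was chosen by its share of counts, which differed between libraries, so its values are described and carry no test.

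The libraries hold poly(A) RNA from fibroblasts of E13.5 embryos (day of gestation), in 4 groups of 2 biological replicates. Control and knockout cells were each sampled without stress as total RNA, and after 500 µM sodium arsenite for 30 min as a fraction enriched for stress granules by centrifugation. In the knockout, Cre recombinase switched on by 500 nM 4-hydroxytamoxifen over 48 h deleted Mettl3, the enzyme that writes N6-methyladenosine (m6A), and samples were taken 1 day after loss of the protein was checked at 7 days. Whether controls were also given 4-hydroxytamoxifen, what drives the Cre and how many embryos gave the cells are not stated in the labels. Fraction and arsenite changed together, so their parts in any granule to total difference cannot be told apart.

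Most mRNAs leave the nucleus soon after processing, whereas these RNAs remain at or near chromatin or in nuclear bodies. Malat1 collects in nuclear speckles, the stores of splicing factors. Neat1 is the scaffold of paraspeckles, bodies that hold RNA-binding proteins, and its gene lies next to Malat1. Exons of other genes overlap 1.85% of the exonic bases of Neat1, 8.29% of Meg3, 3.42% of Rian and 5.03% of Mirg. Whether reads were counted by strand is not given in the sources used here. Meg3, Rian and Mirg are maternally expressed RNAs of the imprinted Dlk1-Dio3 domain. Kcnq1ot1 and Airn are paternally expressed and silence neighbouring genes on the same chromosome. Stress granules, in contrast, are cytoplasmic assemblies of stalled mRNAs and proteins. Cleavage of Malat1 and of the long form of Neat1 leaves 3′ ends that are not made by ordinary polyadenylation but fold into a triple helix with an A-rich tract encoded in the gene. How oligo(dT) beads capture such ends was not tested here.

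The 3′ ends of both RNAs are shown because the libraries depend on capture of A-rich RNA. Transcript sequences are those of GENCODE M21 on GRCm38. The first sequence ends at the A-rich tract inside the annotated Malat1 transcript, minus strand, chr19:5795982-5796091. The second is the end of long Neat1, minus strand, chr19:5824708-5824817. Capitals mark stretches of at least 10 nt that both share.
Malat1: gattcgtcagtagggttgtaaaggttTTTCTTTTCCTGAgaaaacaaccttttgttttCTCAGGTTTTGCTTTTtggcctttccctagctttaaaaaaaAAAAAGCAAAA
Neat1: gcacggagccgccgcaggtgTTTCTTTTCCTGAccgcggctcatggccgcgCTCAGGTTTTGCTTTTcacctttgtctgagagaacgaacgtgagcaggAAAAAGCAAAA
The longest shared stretch, of 16 nt, occurred in the longest transcript of 2 of 55450 annotated genes, these same 2. The stretch of 13 nt occurred in 17 genes (0.0307%) and that of 11 nt in 304 genes (0.548%). The longest run of A was 12 nt in the Malat1 transcript and 7 nt in Neat1, and runs at least that long were present in 5.60% and 27.6% of genes.

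Neat1 also has a short form with an ordinary polyadenylation signal. Its last 60 nt, minus strand, chr19:5842307-5842366, are shown with AATAAA in capitals, since reads of both forms were counted together.
Neat1 short form: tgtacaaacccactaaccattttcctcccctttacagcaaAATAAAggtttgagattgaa
AATAAA, searched on the sense strand only, stood in the last 50 nt of the longest transcript of 30.4% of all genes and 56.4% of protein-coding genes.

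Mettl3 and its partners methylate adenosine most often in the context GGACT, as read in DNA letters. The motif was searched on the sense strand of each transcript, and a match marks letters, not a methylated site. Malat1 held 9 matches (1.29 per kb) and Neat1 23 (1.11 per kb), against a median of 0.957 per kb over 29786 transcripts of at least 1 kb. Mirg had the highest density of the 8 at 1.57 per kb and Rian the lowest at 0.247 per kb, with 2 matches. The densest 100-nt windows of Malat1 (chr19:5801465-5801564) and Neat1 (chr19:5845054-5845153), both on the minus strand, each held 2. Of 100-nt windows tiled without overlap over all genes, 0.513% held at least 2. The windows shown were picked as the densest over every position of a long transcript, so that share does not say how unusual they are.
Malat1 window: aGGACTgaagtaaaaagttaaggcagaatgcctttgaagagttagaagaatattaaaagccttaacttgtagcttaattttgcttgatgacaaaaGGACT
Neat1 window: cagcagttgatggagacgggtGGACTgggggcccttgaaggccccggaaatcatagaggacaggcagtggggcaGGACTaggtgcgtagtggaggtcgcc

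Each library held between 67257220 and 123508539 counts. Levels are counts-per-million values (CPM) with trimmed-mean-of-M-values scaling, and 3 counts correspond to 0.0264 to 0.0441 CPM. Mettl3, measured first to check the labels, stood at 25.4 and 24.9 CPM in control total RNA and at 15.7 and 15.4 in control granules. It stood at 6.004 and 7.35 in knockout total RNA and at 5.56 and 6.38 in knockout granules, below every control library, with an overlap of 18.4% of its exonic bases by other genes. Replicates of knockout total RNA stood far apart, with a median absolute log2 difference of 0.813 over 10261 genes, against 0.101 to 0.312 in the other groups. That difference ran with GC content across genes at a Spearman rho of -0.714, and the smaller difference between control total replicates at 0.740, against -0.127 and 0.0387 in the granule groups (genes are not independent replicates). Mitochondrially encoded transcripts took 7.60% of knockout total replicate 1 and 6.16% and 8.81% of the knockout granule libraries, and 0.590% to 0.881% of the other 5. Whether knockout total replicate 1 differs from its replicate in RNA quality or in its label was not tested. Fibroblast markers summed to between 6048 and 8978 CPM and all 10 were detected in every group. Calls of these RNAs that rest on knockout total RNA, and those gained without it, are therefore also given without either of its libraries. With 2 libraries a group precision is low. P-values are those of edgeR's quasi-likelihood test on all 8 libraries, adjusted by the Benjamini-Hochberg method over 18952 genes and called under 0.05. Before adjustment, p was under 0.05 for 5683 genes between control fractions, 6510 between knockout fractions and 4705 between genotypes in total RNA. It was under 0.05 for 5291 genes between genotypes in granules and 4898 for the difference of granule to total ratio. Counts of lists at an unadjusted p stand beside these numbers, and counts by DESeq2 beside the DESeq2 totals given at the end.

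Malat1 (ENSMUSG00000092341, chromosome 19, 5795690 to 5802672, minus strand, a transcript of 6983 nt in 1 exon block) was the highest of the tested RNAs per kb of exon, with the long form setting the length of Neat1. Exons of other genes cover 7.72% of its bases. It stood at 226 and 500 CPM in control total RNA, 699 and 679 in control granules, 707 and 446 in knockout total RNA, and 2409 and 3206 in knockout granules. The knockout granule libraries were apart from all others, and Malat1 had rank 20 and 13 among all genes there, against ranks from 172 to 857 elsewhere. By group mean the order rose from control total (363 ± 193 CPM, SD, n = 2) through knockout total (577 ± 185) and control granule (689 ± 14.1) to knockout granule (2808 ± 563). Only the step to knockout granule separated neighbouring groups, since the ranges of the other neighbours overlap.

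In knockout cells Malat1 rose 4.87-fold from total RNA to granules, a log2 change of 2.28 (SE 0.43, adjusted p = 0.0133). Without knockout total replicate 1 the change was 2.65 (adjusted p = 0.000508), and without knockout total replicate 2 it was 1.87 (adjusted p = 0.00231). The call was lost without knockout granule replicate 1 (2.40, adjusted p = 0.0797), without knockout granule replicate 2 (2.06, adjusted p = 0.110), and when only these 4 libraries were fitted (2.20, adjusted p = 0.0923). Of all genes, 17.6% were called in this comparison, 9.17% higher, as were 208 of 1539 long noncoding genes. Epithelial markers moved with this comparison. All 5 were detected in every group, 3 were called higher between knockout fractions, and their sum was 210 to 346 CPM in control total, 683 to 719 in control granule, 49.97 to 90.5 in knockout total and 536 to 672 in knockout granule libraries. Krt18 made up most of the sum, with group means of 265, 689, 67.2 and 588 CPM in that order. All 5 markers had positive changes between knockout fractions, but 2 between control fractions, where their median was -0.33. Their part in the Malat1 values was not tested. By fold change Malat1 had rank 1097 of 18952 genes and rank 190 of the 1539 long noncoding ones.

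Between genotypes, Malat1 rose 4.08-fold in granules of knockout cells, a log2 change of 2.03 (SE 0.43, adjusted p = 0.0297). This call was lost when either control granule library was left out (adjusted p = 0.229 and 0.219 without replicates 1 and 2) or either knockout granule library (0.147 and 0.208), with changes from 1.81 to 2.18. It was also lost under a replicate block (2.01, adjusted p = 0.0609). Here 9.45% of all genes were called, 5.79% higher, as were 139 long noncoding genes in the higher direction. In total RNA the change was 0.67 (SE 0.41, adjusted p = 0.334) with overlapping groups, 1.06 without knockout total replicate 2 (adjusted p = 0.0253) and 0.30 without replicate 1. Without control total replicate 1 or 2 it was 0.21 or 1.42, and after removal of each library's GC trend 0.013 (adjusted p = 0.983). Some markers moved with the granule comparison as well. Of 10 fibroblast markers 8 had positive changes between genotypes in granules, and 3 were called higher and 1 lower. Of 6 neural markers tested 4 had positive changes and 1 was called. It was Elavl3, higher, at 0.301 and 0.229 CPM in control and 2.89 and 3.38 in knockout granules. By group mean Elavl4 went the other way, from 1.34 to 0.629 CPM, and so did Gfap, from 0.289 to 0.199. The part of these markers in the Malat1 values was not tested.

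In control cells Malat1 was higher in both granule libraries than in either total library, with a log2 change of 0.92 (SE 0.42, adjusted p = 0.181). Leaving out either knockout total library made it a call (0.92, adjusted p = 0.0251, and 0.96, adjusted p = 0.0233), although neither belongs to this comparison. Without control total replicate 1 or 2 the value was 0.46 (adjusted p = 0.611) or 1.64 (adjusted p = 0.122), and after removal of the GC trend 0.16 (adjusted p = 0.715). Whether granule enrichment differed between genotypes was tested directly and gave 1.36 (SE 0.59, adjusted p = 0.192). This difference was 1.73 without knockout total replicate 1 (adjusted p = 0.0279), 0.91 without replicate 2 (adjusted p = 0.136), 0.56 without control total replicate 2 (adjusted p = 0.553) and 2.36 after removal of each library's GC trend (adjusted p = 0.0200).

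**Figure D1:**
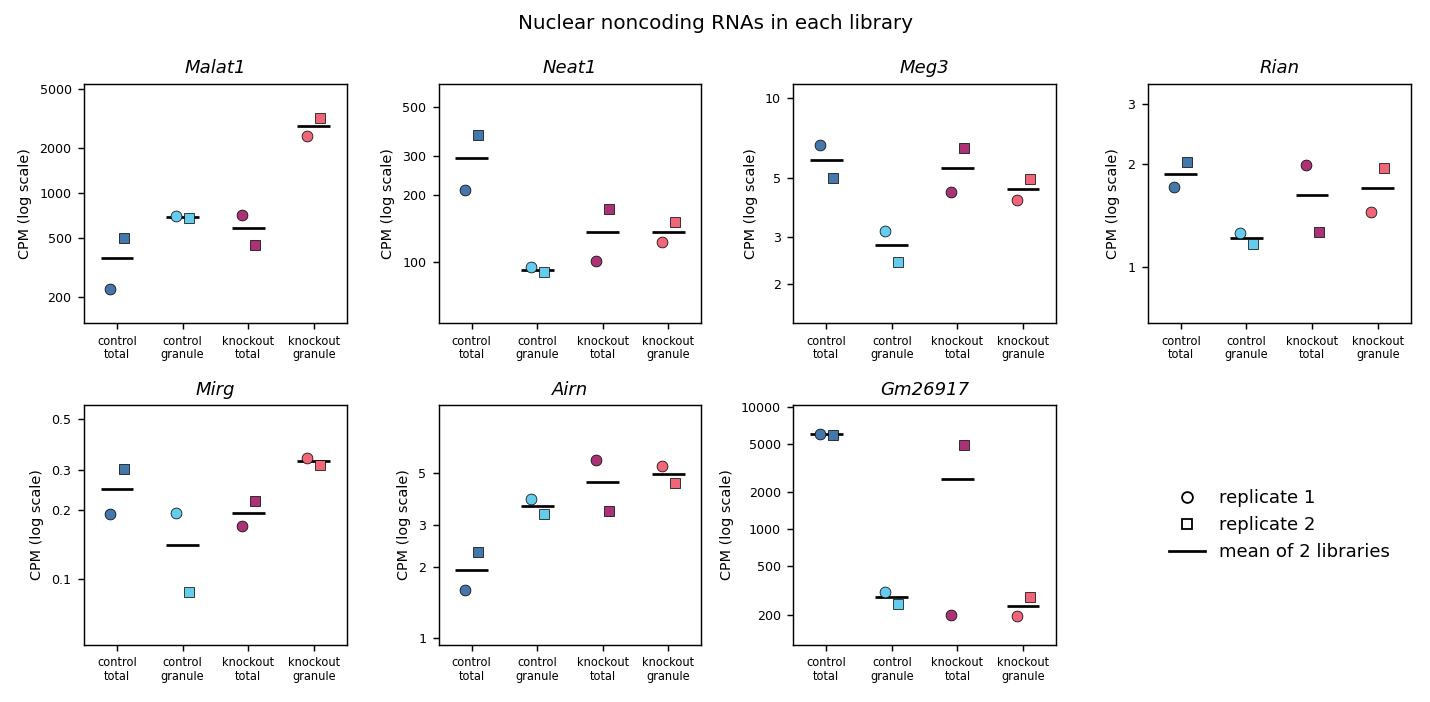
Level of each RNA in each of the 8 libraries, in CPM on a log axis that differs between panels. Circles are replicate 1, squares replicate 2 and lines the mean of the 2. Malat1 reaches 2409 and 3206 CPM in knockout granules, and Gm26917 stands at 199 CPM in one knockout total library and at 4905 in the other.

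Neat1 (ENSMUSG00000092274, chromosome 19, 5824708 to 5845478, minus strand, 20771 nt in 1 exon block) had its highest levels in control total RNA. It stood at 212 and 375 CPM in control total RNA, 94.2 and 90.0 in control granules, 101 and 173 in knockout total RNA, and 123 and 151 in knockout granules. Both control total libraries lay above the other 6. The group means were 293 ± 115 CPM in control total, 137 ± 50.4 in knockout total, 137 ± 19.7 in knockout granule and 92.1 ± 2.98 in control granule libraries (SD, n = 2). Knockout total and knockout granule, neighbours in this order, overlapped.

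From total RNA to granules of control cells Neat1 fell by 1.67 in log2 units (SE 0.37, adjusted p = 0.0336), to 0.314 of its level. Among all genes 10.1% were called in this comparison, 4.17% lower, and 52 of the 1539 long noncoding genes were called lower. The call was kept without either knockout total library (adjusted p = 0.000171 and 0.000323). It was lost without control total replicate 1 (-2.02, adjusted p = 0.102) or 2 (-1.16, 0.144), control granule replicate 1 (-1.66, 0.212) or 2 (-1.60, 0.199), or knockout granule replicate 1 (-1.63, 0.0837) or 2 (-1.67, 0.0829), and under a replicate block (-1.60, adjusted p = 0.0528).

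In knockout cells the same comparison gave a log2 change of -0.0018 (SE 0.36, adjusted p = 0.998) and overlapping groups. The difference between genotypes in granule to total ratio was 1.67 (SE 0.52, adjusted p = 0.117). It was called without knockout total replicate 1 (1.33, adjusted p = 0.0284), without replicate 2 (1.95, adjusted p = 0.00151), and by DESeq2 (1.64, adjusted p = 0.0334). Knockout against control, Neat1 was lower in both knockout total libraries, with a log2 change of -1.10 (SE 0.37, adjusted p = 0.155). Without knockout total replicate 2 this became a call (-1.43, adjusted p = 0.00236), and without replicate 1 it was -0.76. In granules both knockout libraries were above both control ones (0.57, SE 0.37, adjusted p = 0.345).

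The balance of the neighbouring genes can be read within each library, where scaling cancels. Malat1 counts were 1.07 and 1.33 times Neat1 counts in control total RNA, 7.42 and 7.54 times in control granules, 6.99 and 2.59 times in knockout total RNA, and 19.6 and 21.3 times in knockout granules. In each genotype the granule libraries had the higher ratio. Knockout total replicate 1 had a ratio near that of the control granule libraries. Per kb of exon, Malat1 was above Neat1 in every group, at 52.0 against 14.1 CPM per kb in control total and 402 against 6.58 in knockout granules. This order rests on the length of long Neat1, 20771 nt. The short form has 3004 nt, reads of both forms were counted together, and levels per kb of each form were not measured.

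**Figure D2:**
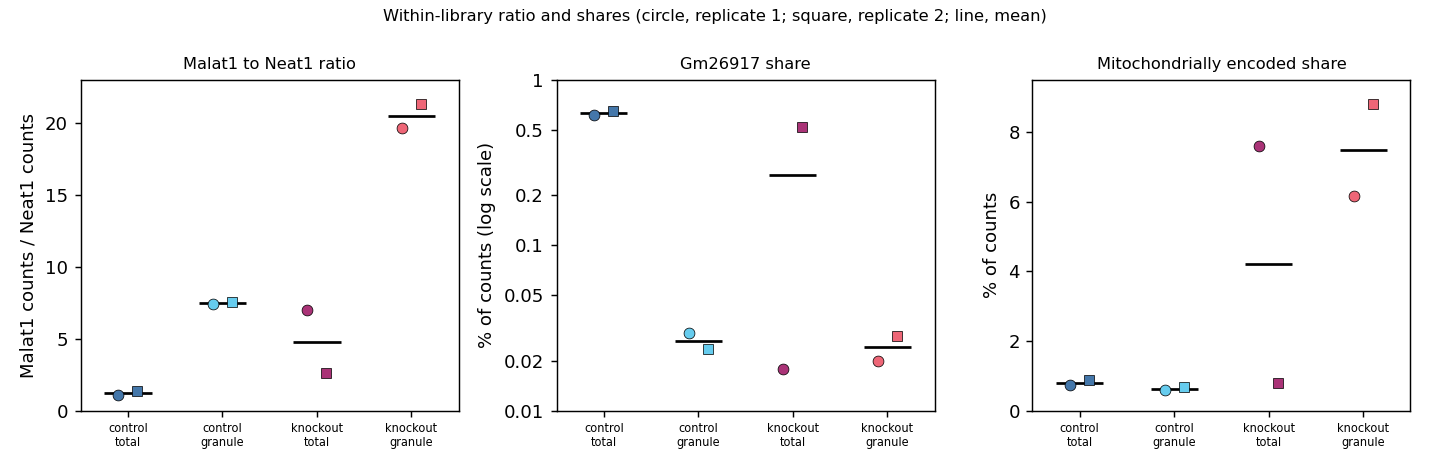
Malat1 counts divided by Neat1 counts (left, linear axis from 0), the Gm26917 share of counts in percent (middle, log axis) and the mitochondrially encoded share in percent (right, linear axis from 0), by library, with circles for replicate 1, squares for replicate 2 and lines for means. The Malat1 to Neat1 ratio runs from 1.07 to 21.3, and the knockout total replicates stand apart in all 3 panels.

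Other genes beside Malat1 and Neat1 on chromosome 19 were compared as a list of 8. Of these 1 was called higher and 1 lower between knockout total and granules, where 9.17% of all genes were called higher and 8.47% lower. In the other comparisons edgeR called 0, with 0 to 3 at an unadjusted p under 0.05 and 0 or 1 called by DESeq2. Cdc42ep2, a Cdc42 effector, stood at 1.95 and 4.14 CPM in knockout total RNA and rose to 25.8 and 22.3 in knockout granules, a log2 change of 2.98 (SE 0.42, adjusted p = 0.00528). Dpf2, a chromatin remodelling subunit, fell by 1.13 (SE 0.29, adjusted p = 0.0350). Frmd8, the closest listed gene on the Neat1 side, had a log2 change of 0.28 (SE 0.39, adjusted p = 0.646). The median over the list was 0.59, against 0.04 over all genes.

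Meg3, Rian and Mirg lie in this order on the plus strand of chromosome 12. Meg3 (ENSMUSG00000021268, 109541001 to 109571726) restrains growth in several cell types. It stood at 6.65 and 4.99 CPM in control total RNA, 3.16 and 2.42 in control granules, 4.41 and 6.501 in knockout total RNA, and 4.11 and 4.95 in knockout granules. The control granule libraries were the lowest. In the order of group means, control total (5.82 ± 1.17) overlapped knockout total (5.46 ± 1.48), which overlapped knockout granule (4.53 ± 0.595, SD, n = 2), and control granule followed apart at 2.79 ± 0.522.

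Meg3 changed by -1.06 from total to granule in control cells (SE 0.33, adjusted p = 0.0796) without passing the threshold. Without either knockout total library it was called (-1.06, adjusted p = 0.00426, and -1.02, adjusted p = 0.00632). In knockout cells the change was -0.27 (SE 0.33, adjusted p = 0.609). Between genotypes it was -0.09 in total RNA and 0.70 in granules (SE 0.33, adjusted p = 0.215), the latter called without knockout total replicate 1 (adjusted p = 0.0370) but not without replicate 2 (0.65, adjusted p = 0.0534).

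Rian (ENSMUSG00000097451, 109603940 to 109661716), host of many small nucleolar RNAs, had a GC content of 35.8%. Its levels were 1.72 and 2.03 CPM in control total RNA, 1.26 and 1.17 in control granules, 1.99 and 1.27 in knockout total RNA, and 1.46 and 1.95 in knockout granules. Only the control groups separated by fraction, with a log2 change of -0.63 (SE 0.35, adjusted p = 0.275). After removal of each library's GC trend this change was -2.23 and was called (adjusted p = 0.00700). The other comparisons of Rian gave values from -0.20 to 0.69, with adjusted p of 0.397 or more. With the GC trend removed, that between genotypes in total RNA went from -0.20 to -1.22 (adjusted p = 0.0969) and the difference of ratios from 0.69 to 2.06 (adjusted p = 0.0530).

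Mirg (ENSMUSG00000097391, 109729764 to 109749460), host of a microRNA cluster, was the sparsest. It had 13 and 28 counts in control total RNA, 20 and 10 in control granules, 19 and 21 in knockout total RNA, and 37 and 31 in knockout granules. The knockout granule libraries were the highest in CPM (0.337 and 0.315) and control granule replicate 2 the lowest (0.0879). The change between genotypes in granules was 1.21 (SE 0.55, adjusted p = 0.197), and that between fractions of knockout cells 0.75 (SE 0.54, adjusted p = 0.371).

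The 3 RNAs did not keep a fixed ratio. Meg3 counts were 3.86 and 2.46 times Rian counts in control total RNA, 2.51 and 2.08 times in control granules, 2.21 and 5.13 times in knockout total RNA, and 2.82 and 2.54 times in knockout granules. The widest gap was between the knockout total replicates. Macrophage markers moved with the lower values in control granules. All 5 were detected in each group, and their sum was 50.7 to 55.2 CPM in control total, 25.1 to 29.9 in control granule, 34.8 to 40.9 in knockout total and 36.8 to 42.6 in knockout granule libraries. Ptprc made up most of this sum, with group means of 39.6, 18.2, 26.1 and 25.5 CPM in that order. It was the 1 macrophage marker called between control fractions, lower. Neural markers, 7 in number with 1 at 0 in control total RNA, summed to 30.1 to 40.4 CPM there, 6.08 to 6.62 in control granule, 13.8 to 24.6 in knockout total and 11.99 to 13.2 in knockout granule libraries. Of the 6 neural markers tested 4 had positive changes between control fractions, with a median of 0.93. Tubb3, a neuronal tubulin, was called lower (-3.002, SE 0.41, adjusted p = 0.00983). It made up most of the neural sum, with group means of 34.2 CPM in control total and 4.27 in control granule libraries. Endothelial markers, all 5 detected, summed to 13.53 to 14.97 CPM in control total, 6.41 to 8.35 in control granule, 15.2 to 20.5 in knockout total and 11.1 to 14.7 in knockout granule libraries, and 1 (Kdr) was called lower between control fractions. Of the 10 fibroblast markers 9 had negative changes between control fractions and 2 were called lower, where 4.17% of all genes were called lower. The part of any of these cell types in the Meg3 and Rian values was not tested. In bulk RNA, fewer cells of a type, less RNA per cell and, between fractions, effects of fraction or arsenite cannot be told apart.

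Dlk1, the paternally expressed growth factor gene at the edge of the same domain was measured beside them. It stood at 0.426 and 0.302 CPM in control total RNA, 0.815 and 0.659 in control granules, 0.494 and 0.748 in knockout total RNA, and 4.60 and 3.31 in knockout granules. It rose between fractions of knockout cells by 2.67 (SE 0.39, adjusted p = 0.00595) and between genotypes in granules by 2.42 (SE 0.39, adjusted p = 0.0127). Of all genes 9.17% and 5.79% were called higher in these 2 comparisons. Begain, Rtl1 and Dio3, the other listed genes of the domain, were not called in any comparison by edgeR, and DESeq2 called 1 gene of the domain between knockout fractions and 1 in granules. In the 3 comparisons where edgeR called 0, 0 to 2 had an unadjusted p under 0.05. Rtl1 reached at most 0.376 CPM and Dio3 0.233 CPM. The list's median was 1.41 between knockout fractions and 1.95 between genotypes in granules, against 0.04 and 0.08 over all genes.

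Airn (ENSMUSG00000078247, chromosome 17, 12741311 to 12860136, plus strand) starts within Igf2r, which it silences in cis on the paternal chromosome in most embryonic tissues. None of its annotated exonic bases overlaps an exon of another gene. Overlap of its exons with introns of other genes, Igf2r among them, was not measured. It stood at 1.59 and 2.31 CPM in control total RNA, 3.89 and 3.37 in control granules, 5.72 and 3.46 in knockout total RNA, and 5.36 and 4.53 in knockout granules. The control total libraries were the lowest, and every other group overlapped knockout total RNA. Means were 1.95 ± 0.509, 3.63 ± 0.372, 4.59 ± 1.597 and 4.94 ± 0.589 CPM (SD, n = 2), from control total through control granule and knockout total to knockout granule.

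Knockout against control in total RNA, Airn had the highest log2 fold change of the 6, 1.23 (SE 0.36, adjusted p = 0.143). It was called without knockout total replicate 2 (1.65, adjusted p = 0.000603) and by DESeq2 (1.27, adjusted p = 0.0162), and was 0.82 without replicate 1. In control cells it was 0.89 from total to granules (SE 0.36, adjusted p = 0.139), called without knockout total replicate 1 (adjusted p = 0.0145) or 2 (adjusted p = 0.0114). In knockout cells it was 0.11 (SE 0.35, adjusted p = 0.856), and between genotypes in granules 0.45 (SE 0.35, adjusted p = 0.443). Airn was the only tested RNA whose difference between genotypes in granule to total ratio was negative, -0.79 (SE 0.50, adjusted p = 0.339). It was -1.26 without knockout total replicate 2 (adjusted p = 0.0173), -0.38 without replicate 1 (adjusted p = 0.529), -1.21 without control total replicate 2 (adjusted p = 0.272) and -0.16 after removal of the GC trend (adjusted p = 0.799).

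Igf2r, the target of Airn and the receptor that clears Igf2, was far more abundant and was not called. Its levels ran from 140 to 263 CPM, and its log2 changes were -0.54, -0.42, -0.06 and 0.06 in the same 4 comparisons (control fractions, knockout fractions, total RNA, granules), with adjusted p from 0.262 to 0.915. Igf2r counts were 128 and 111 times Airn counts in control total RNA, 44.8 and 41.7 times in control granules, 30.8 and 76.0 times in knockout total RNA, and 34.2 and 32.1 times in knockout granules. The control total libraries had the highest ratios. Of 6 listed neighbours of the Airn domain 3 were tested. edgeR called 0 of them in each of the 5 comparisons, with 0 or 1 at an unadjusted p under 0.05, and DESeq2 called 1, in granules.

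Kcnq1ot1 is a transcript of 93092 nt antisense to Kcnq1, in the annotation at chromosome 7, 143203458 to 143296549, minus strand. Genes of its imprinted domain, several of which it is known to silence, were measured as a list of 12. The list had 1 call in the 5 comparisons, lower between knockout fractions, where 8.47% of all genes were called lower. In the 4 comparisons where edgeR called 0, 2 to 4 genes had an unadjusted p under 0.05 and DESeq2 called 0 to 2. Ascl2, a transcription factor gene, fell by 2.90 (SE 0.67, adjusted p = 0.0252) between fractions of knockout cells, from 0.935 and 0.353 CPM to 0.109 and 0.0610. Cdkn1c, an inhibitor of the cell cycle, stood between 0.448 and 0.956 CPM with overlapping groups knockout against control. Kcnq1 had log2 changes of -1.93 (SE 0.59, adjusted p = 0.0733) between control fractions and 1.68 (SE 0.58, adjusted p = 0.109) between genotypes in granules.

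**Figure D3:**
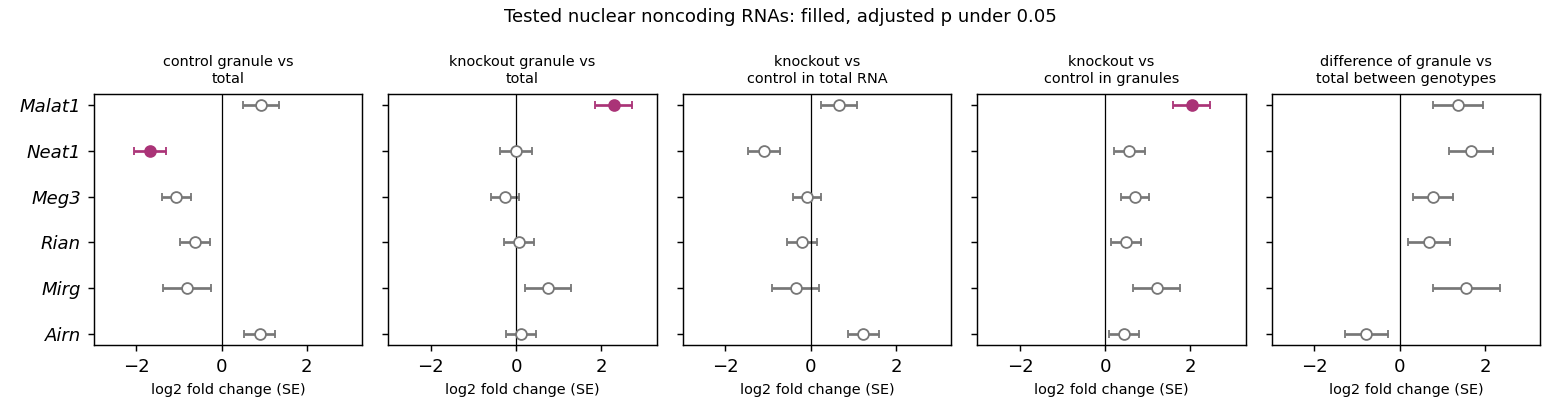
Log2 fold change with its standard error for the 6 tested RNAs in the 5 comparisons. Filled points have an adjusted p under 0.05. They are Neat1 in control cells (-1.67) and Malat1 in knockout cells (2.28) and in granules between genotypes (2.03).

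Side by side, 1 of the 6 tested RNAs was called between control fractions (Neat1, lower; 10.1% of all genes were called), 1 between knockout fractions (Malat1, higher; 17.6% of all genes) and 1 between genotypes in granules (Malat1, higher; 9.45% of all genes). A call in 1 of 6 is near these shares. In total RNA between genotypes edgeR called 0 of 6, where it called 0.412% of all genes. At an unadjusted p under 0.05 stood 2 of the 6 (Neat1 and Airn) and 4705 of all 18952 genes. DESeq2 called 1 of the 6 here, and its counts over all genes are given at the end. For the difference of granule to total ratio edgeR called 0 of 6, where it called 0.517% of all genes. An unadjusted p under 0.05 was found for 2 of the 6 (Malat1 and Neat1) and for 4898 of all 18952 genes. DESeq2 called 1 of the 6 in this comparison, and its counts over all genes are given at the end. In granules both knockout libraries were above both control libraries for all 6, a pattern that 40.4% of all genes showed. The 6 had a median log2 fold change of 0.63 in granules, near that of all long noncoding genes (0.57), while the median of all genes was 0.08. In total RNA the knockout libraries were both below the controls for 1 of 6 (Neat1), as for 24.7% of all genes, and both above for 1 (Airn), as for 24.4%. Between control fractions the median was -0.72, against -0.14 for long noncoding and -0.06 for all genes. These comparisons share libraries and are not independent of one another.

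**Figure D4:**
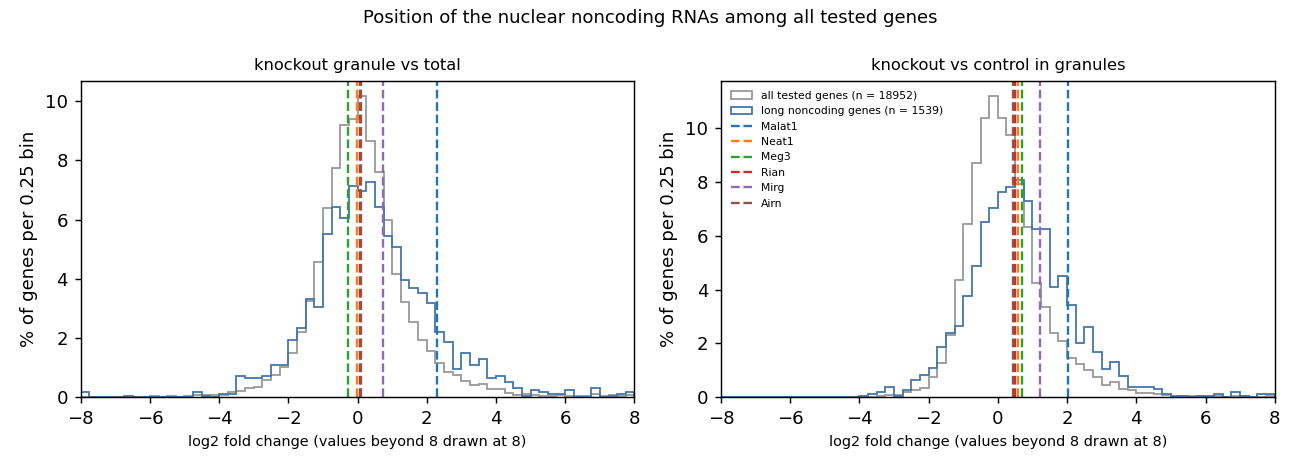
Distribution of log2 fold changes over 18952 tested genes (grey) and 1539 long noncoding genes (blue), in percent of genes per 0.25-wide bin, for knockout granule against total (left) and knockout against control in granules (right). Dashed lines mark the 6 tested RNAs. In granules between genotypes all 6 lie above 0, from 0.45 (Airn) to 2.03 (Malat1).

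Long noncoding genes other than Gm26917 held 0.369% and 0.486% of the counts left after its removal in control total RNA, 0.353% and 0.357% in control granules, 0.378% and 0.460% in knockout total RNA, and 0.568% and 0.648% in knockout granules. The knockout granule libraries had the highest share. With Malat1 also removed the shares were 0.346% and 0.431% in control total RNA, 0.286% and 0.292% in control granules, 0.315% and 0.413% in knockout total RNA, and 0.319% and 0.326% in knockout granules, so that both knockout granule libraries were below both control total ones. Malat1 alone made up 50.5% and 56.6% of the counts of the 6 tested RNAs in control total RNA, and 94.7% and 95.2% in knockout granules.

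Gm26917 (ENSMUSG00000097971, chromosome 17, 39843013 to 39846341, plus strand) is annotated as a noncoding RNA gene of 3329 nt in 1 exon block, with a GC content of 69.1%, at the 99.95th percentile of transcripts of at least 1 kb. RefSeq on GRCm38.p6 places Rn18s-rs5, a pseudogene of 18S ribosomal RNA, just after it at 39846354 to 39848202. Its first 100 nt, chr17:39843013-39843112, plus strand, are shown for their GC-rich composition.
Gm26917: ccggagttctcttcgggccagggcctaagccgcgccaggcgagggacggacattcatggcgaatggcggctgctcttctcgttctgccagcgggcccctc
It took 0.613% and 0.644% of counts in control total RNA, 0.0295% and 0.0235% in control granules, 0.0180% and 0.515% in knockout total RNA, and 0.0200% and 0.0282% in knockout granules. The 95% Wilson intervals are 0.611% to 0.615% in control total replicate 1 and 0.0177% to 0.0182% in knockout total replicate 1, and cover counting error only.

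In 3 libraries Gm26917 was among the 4 most abundant genes, at 6063 and 5940 CPM in control total RNA and 4905 in knockout total replicate 2. In knockout total replicate 1 it was at 199 CPM, within the 193 to 308 CPM of the 4 granule libraries. The replicates of knockout total RNA thus differed 24.6-fold, those of the other groups 1.02-fold to 1.45-fold. Gm42418, an 18S-related gene beside it, had 0 to 13 counts in each library. Exons of other genes on the opposite strand overlap 99.5% of its exonic bases. How reads in such overlaps were counted is not given in the sources used here, so its low counts may not reflect its level. Gm42418 was called lower between control fractions (adjusted p = 0.0374) at these few counts. Of 4 tested features listed with Gm26917 as possible carriers of ribosomal RNA sequence, the only other with a call was Cdk8. This gene, which encodes a kinase of the Mediator complex, was lower between knockout fractions (-1.51, SE 0.40, adjusted p = 0.0381) and between genotypes in granules (-1.69, SE 0.40, adjusted p = 0.0402). Lars2, a mitochondrial aminoacyl-tRNA synthetase gene, stood at 36.1 and 29.2 CPM in control total RNA and at 14.3 and 31.6 in knockout total RNA, the lower value again in replicate 1.

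The genes whose log2 CPM ran most like that of each RNA over the 8 libraries were taken from 10212 genes that averaged 5 CPM or more. The 8 values share 4 groups, depth and the split between the knockout total replicates, so the correlations only describe these libraries. For Malat1 they were Akap13 (Pearson r 0.987), Angel2 and Rsbn1. For Neat1 they were Tmem42 (0.941) and the histone genes Hist1h2ak and Hist1h2af. Those of Meg3 were Trmo (0.969), Plxnd1 and Pstpip1, and those of Rian were Hcls1 (0.981), Lcp1 and Coro1a. Mirg was followed by Manba (0.937), Tcf7 and Sh2d3c, Airn by Mis12 (0.987), Pwwp2a and Cdadc1, and Gm26917 by Retsat (0.992) and Adamts14. Among the RNAs themselves, Neat1 and Gm26917 had the highest r (0.838) and Airn and Gm26917 the lowest (-0.824).

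Proteins of the paraspeckle bind Neat1, and their mRNAs were followed as a list of 15. Between control fractions 4 were called higher and 0 lower, where 5.89% of all genes were called higher, with a median of 0.69 against -0.06 over all genes. Matr3, a nuclear matrix RNA-binding protein, rose from 29.3 and 42.7 to 223 and 210 CPM, a log2 change of 2.59 (SE 0.43, adjusted p = 0.0154), with 17.3% of its exonic bases shared with other genes. Cpsf6, a 3′ end processing factor, rose by 1.68 (SE 0.32, adjusted p = 0.0218). Between knockout fractions 1 was called, where 8.47% of all genes were called lower. It was Nono, a core paraspeckle protein, which fell by 1.42 (SE 0.39, adjusted p = 0.0435). Between genotypes in granules 0 rose and 3 fell, where 3.66% of all genes were called lower, with a median of -0.79 against 0.08 over all genes. The lowest were the core protein Pspc1 (-1.31, SE 0.31, adjusted p = 0.0370) and Hnrnpk (-1.21, SE 0.28, adjusted p = 0.0351). In total RNA edgeR called 0, with 5 at an unadjusted p under 0.05 and 1 called by DESeq2. For the difference of ratios edgeR called 0, with 7 at an unadjusted p under 0.05 and 6 called by DESeq2. Of all 18952 genes 4705 and 4898 had an unadjusted p under 0.05 in these 2 comparisons, and DESeq2 counts over all genes are given at the end.

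Nuclear speckle proteins, the surroundings of Malat1, made a list of 18. Between control fractions 4 were called higher and 0 lower, against 5.89% of all genes called higher, with a median of 0.72. They were led by Pnn (2.02, SE 0.46, adjusted p = 0.0349) and the splicing factor Srsf3 (1.56, SE 0.31, adjusted p = 0.0240). Between knockout fractions, where 9.17% of all genes were called higher and 8.47% lower, Acin1 rose (0.86, SE 0.25, adjusted p = 0.0494), while the splicing factors Srsf2 (-1.55, SE 0.25, adjusted p = 0.00762) and Srsf6 (-0.86, SE 0.24, adjusted p = 0.0409) fell. Srsf2 was the 1 called between genotypes in granules (-1.56, SE 0.25, adjusted p = 0.0127), where 3.66% of all genes were called lower. It went from 210 and 215 CPM in control to 81.7 and 62.2 in knockout granules, and 25.3% of its exonic bases overlap other genes. In total RNA edgeR called 0 and for the difference of ratios 0, with 7 and 8 at an unadjusted p under 0.05. Of all 18952 genes 4705 and 4898 were under that limit. DESeq2 called 5 of the list in each, and its counts over all genes are given at the end.

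Chromatin factors known to act with silencing RNAs made a list of 12. Suz12, a Polycomb subunit, rose between control fractions (2.15, SE 0.47, adjusted p = 0.0318), and between genotypes in granules the maintenance methyltransferase gene Dnmt1 (-0.96, SE 0.24, adjusted p = 0.0471) and Hnrnpk fell. No other call was made by edgeR on this list in the 5 comparisons. Of all genes 5.89% were called higher between control fractions and 3.66% lower between genotypes in granules. DESeq2 called 5 of the 12 between control fractions and 1 to 3 in each other comparison, and its counts over all genes are given at the end.

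The nuclear m6A machinery had 12 tested genes. Between control fractions 4 were called higher and 0 lower, against 5.89% of all genes called higher, led by Rbm15 (1.63, SE 0.33, adjusted p = 0.0267) and the reader Hnrnpa2b1 (1.45, SE 0.27, adjusted p = 0.0199). Rbm15 also rose between knockout fractions (1.51, SE 0.33, adjusted p = 0.0219). Between genotypes edgeR called only Mettl3 of this list, with log2 changes of -1.91 in total RNA (SE 0.27, adjusted p = 0.0345) and -1.38 in granules (SE 0.26, adjusted p = 0.0208). DESeq2 called 6 of the 12 in total RNA and 1 in granules, and 6 and 4 had an unadjusted p under 0.05. For the difference of ratios edgeR called 0, with 3 at an unadjusted p under 0.05 and 2 called by DESeq2. Of all 18952 genes 4705, 5291 and 4898 had an unadjusted p under 0.05 in these 3 comparisons. DESeq2 counts over all genes are given at the end.

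Other nuclear noncoding RNAs, 10 tested of 15 listed, had 3 calls. Between knockout fractions 1 was called higher and 1 lower, where 17.6% of all genes were called. Between genotypes in granules 1 was called higher, where 9.45% of all genes were called. The calls in this list are near these shares. Where edgeR called 0 (control fractions, total RNA and difference of ratios), 3 had an unadjusted p under 0.05 in each and DESeq2 called 2, 2 and 1. Lncpint, a p53-regulated RNA, stood at 0.132 and 0.259 CPM in control total RNA, 0.204 and 0.202 in control granules, 0.207 and 0.145 in knockout total RNA, and 0.692 and 0.885 in knockout granules. The knockout granule libraries were above the rest, as for Malat1, and Lncpint rose by 2.15 between knockout fractions (SE 0.48, adjusted p = 0.0223) and by 1.95 between genotypes in granules (SE 0.47, adjusted p = 0.0416). Firre, an RNA of the X chromosome, fell by 2.33 between knockout fractions (SE 0.57, adjusted p = 0.0307). Tug1 was not called and had its highest value, 130 CPM, in knockout total replicate 1, against 13.46 to 67.7 elsewhere. The list's median was -0.60 between knockout fractions and -0.27 between genotypes in granules, on the other side of 0 from Malat1.

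Noncoding RNAs that are exported to the cytoplasm served as a contrast, with 7 tested. Snhg12, a host of small nucleolar RNAs, was lower in granules than in total RNA, with log2 changes of -1.92 in control (SE 0.27, adjusted p = 0.0101) and -1.17 in knockout cells (SE 0.27, adjusted p = 0.0234), and Epb41l4aos rose between genotypes in granules by 1.12 (SE 0.29, adjusted p = 0.0498). No other member of that list was called in the 5 comparisons by edgeR, which in total RNA and for the difference of ratios called 0 (1 and 0 at an unadjusted p under 0.05, DESeq2 0 in both). Of all genes 4.17% were called lower between control fractions, 8.47% lower between knockout fractions and 5.79% higher between genotypes in granules. Of 5 mRNAs known to be held in the nucleus, Clk1 rose between control fractions (1.41, SE 0.33, adjusted p = 0.0384). Between knockout fractions Slc7a2 (-2.00, SE 0.48, adjusted p = 0.0291) and Ogt (-1.78, SE 0.32, adjusted p = 0.0116) fell. Slc7a2, a transporter of basic amino acids, was higher in knockout cells in total RNA (3.34, SE 0.51, adjusted p = 0.0463) and in granules (2.88, SE 0.50, adjusted p = 0.0169). Between genotypes in total RNA 0.412% of all genes were called in either direction, and between control fractions 5.89% were called higher. Over these companion genes, without the cell type markers, each of 44 calls survived in between 2 and 7 of the 8 fits that left out a library, 0 survived in all 8, and 0 changed sign.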

How the data were processed

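The deposited table holds raw read counts per Ensembl gene identifier for the 8 libraries, 1 column a library, per the file headers. Per the submitters' processing notes, STAR, DESeq2 and the builds GRCm38 and mm10 were used; the counting program, strand setting and annotation release are not given in the sources used here. Of 39017 identifiers 37607 matched GENCODE M21, and the unmatched ones held 0.179% to 0.255% of counts. The table's annotation may differ from M21, so lengths and overlaps are those of M21. Overlaps were counted between exons only.

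Counts as deposited were fitted with edgeR 4.0.16 in R 4.3.3 (quasi-likelihood F-test, robust, trimmed-mean-of-M-values scaling, edgeR's expression filter, 4 group means, 4 residual degrees of freedom), after a check on simulated data. P-values were adjusted over 18952 genes. Alternatives were other scaling (library size, size factors, without mitochondrial and ribosomal RNA-like features), DESeq2 1.42.0, other filters, a replicate block, removal of the GC trend of each library (lowess, span 0.3), fits restricted to the libraries of a comparison and omission of each library in turn. A block with crossed numbers was added after the data were seen. Groups and replicate numbers came from the labels. P-values measure the spread between these libraries, in which differences of culture and of library preparation cannot be told apart.

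The RNAs and all gene lists were chosen with earlier results of these data known. From each list at most the 2 highest and 2 lowest called genes of a comparison were named, with genomic neighbours and ribosomal RNA-like features free to be named; Tug1, Lars2 and the single marker genes were chosen after their values were seen. The 3 genes most like each RNA were ranked by Pearson r. Some genes that these rules would name are not reported here.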

Additional observations from a re-analysis of the deposited data

Results flagged for a closer look

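Neat1 lay on opposite sides of its controls in the fractions. In total RNA both knockout libraries (101 and 173 CPM) were below both control libraries (212 and 375), a log2 change of -1.10 (SE 0.37, edgeR adjusted p = 0.155). In granules both knockout libraries (123 and 151) were above both control libraries (94.2 and 90.0), a log2 change of 0.57 (SE 0.37, adjusted p = 0.345). The difference was tested as an interaction and gave 1.67 (SE 0.52, adjusted p = 0.117, 0.0123 before adjustment). Over the alternatives it ranged from 1.10 to 2.13.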

How the results depend on the processing

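Counts of called genes depended on the setting, and are given in the order control fractions, knockout fractions, genotypes in total RNA, genotypes in granules and difference of ratios. With edgeR as reported they were 1906, 3343, 78, 1791 and 98. DESeq2 gave 4072, 5091, 2506, 3381 and 2746. No expression filter gave 4001, 5161, 3407, 3404 and 3476, and a filter at a mean of 5 CPM gave 1224, 1744, 67, 813 and 46. Removing each library's GC trend gave 3758, 5932, 676, 4326 and 1302. Library size alone gave 37 in total RNA. Fits of only the libraries compared gave 7296, 0, 0 and 10222, with 4400 and 1871 at an unadjusted p under 0.05 where edgeR called 0. The difference of ratios was 76 higher and 22 lower, but 1003 and 1743 with DESeq2, 1154 and 2322 without a filter, and 763 and 539 after GC removal.

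Whether replicate numbers pair the samples was not settled. Deviations of same-numbered libraries correlated at -0.602 to 0.190 over the 6 pairs of groups. Replicate differences ran with GC content at a Spearman rho of 0.740 in control total and -0.714 in knockout total RNA. The correlations were not repeated with the GC trend removed, so they cannot show whether cultures were paired. A replicate block gave 581, 1898, 0, 670 and 0 calls, with 3474 and 3923 at an unadjusted p under 0.05 where 0 were called. The block with GC removal gave 2961, 5105, 260, 3447 and 425. A crossed block, chosen after seeing the data, gave 2354, 3168 and 94 in the first 3 comparisons.

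Leaving out 1 library gave 0 to 8133, 236 to 9684, 0 to 9615, 0 to 7798 and 0 to 9381 called genes, and 0 to 4, 0 to 1, 0 to 3, 0 to 2 and 0 to 2 of the 6 RNAs. The highest counts came without a knockout total library: replicate 1 gave 8133, 6854, 1060, 7735 and 3671, and replicate 2 gave 8055, 9684, 9615, 7798 and 9381. Of the 6 RNAs, between control fractions DESeq2 and no filter called 2, GC removal 3, the block 0, the block with GC removal 2 and the libraries compared 4. Between knockout fractions the libraries compared gave 0. In total RNA DESeq2 called 1 and no filter 2. In granules the block called 0 and the libraries compared 3. For the difference of ratios DESeq2, no filter and GC removal called 1 and the block with GC removal 2.

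Changes of sign concerned values near 0 that were not called. Between knockout fractions Neat1 was 0.037 with library size alone, 0.070 with the 5 CPM filter, 0.035 with the block, 0.22 with GC removal, 0.29 with both, and -0.34 to 0.32 when 1 library was left out. Rian was -0.048 without a filter, -0.17 with GC removal, -0.16 with block and GC removal, -0.021 in the libraries compared and -0.34 to 0.43 when 1 library was left out. Airn was -0.0063 without a filter and -0.33 to 0.52 when 1 library was left out. In total RNA, leaving out 1 library gave -0.30 to 0.16 for Meg3, -0.63 to 0.078 for Mirg and -0.57 to 0.19 for Rian. Of the values of single RNAs under all alternatives, 462 kept direction and side of the threshold, 32 gained a call, 15 lost one and 23 changed sign.

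Library size alone moved the median of all genes by -0.13 between control fractions and by 0.19 in the difference of ratios. GC removal moved it by 0.11 in granules. DESeq2 gave no adjusted p for Mirg in total RNA. The motif density over merged exons was not run. Mirg, with 10 to 37 counts, is limited by depth, and 2 libraries a group limit all others.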
